A study of Mus musculus with 4 samples.

Results

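The Onecut, Myt1-family and Dlx genes encode 3 kinds of DNA-binding protein, and their 10 members here are Onecut1, Onecut2, Onecut3, St18, Myt1, Myt1l, Dlx1, Dlx2, Dlx5 and Dlx6. They were found by symbol in the deposited table, with 1 row for each gene identifier, and are 10 of its 27178 genes. The families were selected on the wavefront and trailing values of Onecut2, St18 and Dlx2, which were lower at the wavefront. The other 7 members came by family name. The values of those 3 genes are therefore a description with no test. RNA came from neural crest-derived cells of the mouse embryonic gut at 11.5 days post coitum, in 2 groups of 2 libraries each. The wavefront group holds cells from the advancing front of the migration down the gut, and the trailing group holds cells from 1 to 1.5 mm behind that front. Both groups came from Wnt1-tdT mice, were freed with collagenase and dispase, and were sorted by flow cytometry for tdT, the red reporter that marks cells of the Wnt1 lineage. No other allele or agent is named in the labels, and they do not say how many embryos or litters gave a library, and p-values can therefore measure nothing but the spread between libraries, possibly technical.

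Onecut proteins carry a cut domain and a homeodomain and are known from liver and pancreas development and from differentiating neurons. The Myt1 family, which holds Myt1, Myt1l and St18, are zinc finger factors of developing neurons and endocrine cells: Myt1 opposes Notch signalling during neurogenesis, and Myt1l represses genes of other lineages in neurons. Dlx genes are homeobox genes that lie in the genome as neighbouring pairs and are known for patterning the jaw skeleton and for making forebrain interneurons. In the enteric nervous system, crest cells that move down the gut divide as progenitors and turn into neurons and glia along the way.

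Promoter windows are shown for Dlx2 and Myt1, which stand for the Dlx and Myt1 families with reads here, and for Onecut1, a member without a read. Each is the 250 bases before a RefSeq start of the gene (GRCm38.p6), 5′ to 3′ on the strand of the gene. Capitals mark matches to any of 4 motifs searched on both strands: AAGTT (the core bound by Myt1-family zinc fingers), ATTGAT (the Onecut core), TAATT (a homeodomain core such as Dlx proteins bind) and CANNTG (the E-box of neurogenic basic helix-loop-helix factors).
Dlx2, chr2:71546755-71547004, reverse strand: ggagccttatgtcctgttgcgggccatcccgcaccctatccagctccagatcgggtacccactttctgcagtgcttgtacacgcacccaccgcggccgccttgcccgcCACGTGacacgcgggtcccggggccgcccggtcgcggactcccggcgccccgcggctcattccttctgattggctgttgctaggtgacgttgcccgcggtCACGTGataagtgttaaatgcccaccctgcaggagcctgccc
Myt1, chr2:181763082-181763331, forward strand: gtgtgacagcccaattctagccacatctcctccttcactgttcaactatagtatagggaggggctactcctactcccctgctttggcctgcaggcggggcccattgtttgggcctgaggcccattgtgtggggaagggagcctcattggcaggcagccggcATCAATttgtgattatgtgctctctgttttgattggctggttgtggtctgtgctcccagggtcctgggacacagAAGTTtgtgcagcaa
Onecut1, chr9:74861671-74861920, forward strand: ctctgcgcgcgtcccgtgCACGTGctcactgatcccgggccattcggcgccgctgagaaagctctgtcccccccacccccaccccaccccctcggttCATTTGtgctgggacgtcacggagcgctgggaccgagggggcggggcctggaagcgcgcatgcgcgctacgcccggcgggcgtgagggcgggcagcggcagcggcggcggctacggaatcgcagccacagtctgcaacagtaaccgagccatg
The Dlx2 window held 2 matches, both the E-box form CACGTG, at positions -142 and -42 counted back from the start. The printed Myt1 window held the Onecut core at -89 and the Myt1-family core at -15, and no E-box. The further Myt1 windows, at other RefSeq starts, held 2 and 1 E-boxes. The Onecut1 window held E-boxes at -232 and -153. Of all 32851 RefSeq windows of this length, 66.2% held an E-box, 35.3% the Myt1-family core, 25.0% the homeodomain core and 6.72% the Onecut core. The motifs were chosen after the windows were seen, and a match describes letters, not a bound site. RefSeq windows matched 5 of the 10 members, and the further windows of Myt1 and those of Myt1l and Dlx1 are not printed.

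Depth was low and uneven. The deposited values are CPM, and whole reads were recovered from them: 543070 and 260217 reads in the wavefront libraries and 517000 and 452142 in the trailing libraries. Ribosomal reads made up 15.6% and 55.5% of wavefront replicates 1 and 2, and 24.4% and 26.1% of trailing replicates 1 and 2. The floor used here, 3 reads, is worth 5.52 and 11.5 CPM in wavefront replicates 1 and 2, and 5.80 and 6.64 CPM in trailing replicates 1 and 2. Intervals here are exact binomial intervals for counting error only. The sorted cells held reads of Ret, the receptor of enteric crest cells (1413 and 155 at the wavefront, 864 and 545 trailing).

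Of the Onecut genes, Onecut2 alone had more than 2 reads in all, and nearly all of them were trailing. Onecut2 (chromosome 18, 64340020 to 64400987, GRCm38) had 2 and 0 reads at the wavefront, which are 3.68 and 0 CPM, against 23 and 26 reads or 44.5 and 57.5 CPM in trailing cells. The trailing libraries lay close together and above both wavefront libraries. The reads gave a scaled ratio, wavefront over trailing, of 0.0535 (95% counting interval 0.00631 to 0.204), and scaled CPM were 1.68 ± 2.38 at the wavefront and 49.0 ± 7.73 trailing (SD, n = 2 each). In bulk samples, fewer cells of a type and less RNA per cell cannot be told apart. Onecut3 (chromosome 10, 80494835 to 80517276) had 1 and 0 reads at the wavefront and 1 and 0 trailing, under the floor in both groups. Onecut1 (chromosome 9, 74861921 to 74891781), the family's liver and pancreas gene, had 0 reads in all 4 libraries, which allows up to 11.5 CPM in the shallowest.

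St18, Myt1 and Myt1l each had more reads in trailing cells, at very different depths. St18 (chromosome 1, 6487231 to 6860940), also called Myt3, had 3 and 2 reads at the wavefront, 5.52 and 7.69 CPM, against 31 and 38 reads or 60.0 and 84.0 CPM in trailing cells. The groups did not overlap, and each wavefront library was at or under the floor of 3 reads. St18 averaged 8.36 ± 4.70 scaled CPM at the wavefront and 69.2 ± 14.8 trailing (SD, n = 2 each), with a log2 fold change, wavefront over trailing, of -3.33 ± 0.56 (SE) in edgeR's quasi-likelihood fit to the recovered reads, the count test used here. Myt1 (chromosome 2, 181763332 to 181827797) had 1 and 1 reads at the wavefront, 1.84 and 3.84 CPM, against 11 and 11 reads or 21.3 and 24.3 CPM in trailing cells. Both trailing libraries held the same number of Myt1 reads, and both wavefront libraries a single read. The scaled ratio for Myt1 was 0.119 (95% counting interval 0.0136 to 0.485), or 0.267 without wavefront replicate 1 and 0.0767 without wavefront replicate 2. Myt1 did not pass the count test over all genes (edgeR with Benjamini-Hochberg, adjusted p = 0.0831, range 0.0727 to 1.00 over the 8 alternatives that gave one, the highest from the authors' p-values). Limma gave Myt1 -2.68 ± 0.68 (SE, adjusted p = 0.68, range 0.14 to 0.972 over its other settings). Myt1l (chromosome 12, 29528384 to 29923213), the neuron-restricted member, had 0 and 0 reads at the wavefront against 2 and 3 reads or 3.87 and 6.64 CPM in trailing cells. The counting interval of its scaled ratio, wavefront over trailing, ran from 0 to 1.43 and so includes no difference, and its trailing CPM are under the 11.5 CPM that 3 reads are worth in wavefront replicate 2. A difference in Myt1l was not detectable at this depth. Limma, on log2(CPM + 1), did not call Myt1l (-2.61 ± 0.82 SE, adjusted p = 0.68, range 0.15 to 0.938 over its other settings).

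**Figure D1:**
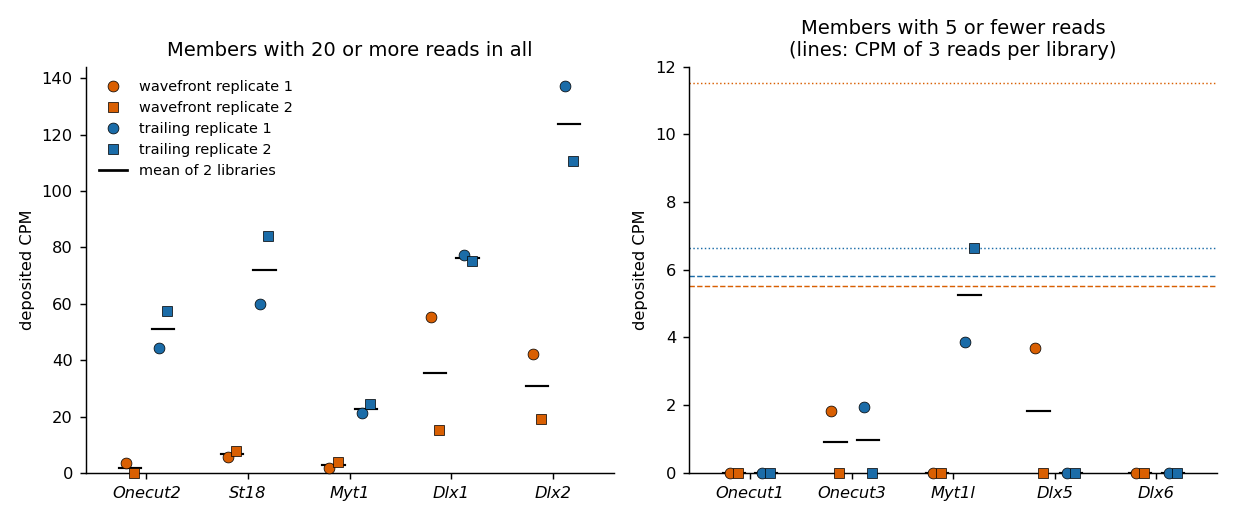
Deposited CPM (y axis) of each member in each library, orange for the 2 wavefront and blue for the 2 trailing libraries, circles for replicate 1, squares for replicate 2 and a bar for the mean. Onecut2 sits at 3.68 and 0 CPM at the wavefront and 44.5 and 57.5 trailing, and the right panel shows that the other 5 members lie at or under the CPM of 3 reads drawn as a line for each library (dashed for replicate 1, dotted for replicate 2).

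Among the Dlx genes, reads came almost wholly from the Dlx1 and Dlx2 pair. Dlx2 (chromosome 2, 71543408 to 71546754) had 23 and 5 reads at the wavefront, 42.4 and 19.2 CPM, against 71 and 50 reads or 137 and 111 CPM in trailing cells. The higher wavefront library stood well under the lower trailing library. Dlx2 averaged 33.9 ± 6.65 scaled CPM at the wavefront and 120 ± 21 trailing (SD, n = 2 each), a log2 fold change of -1.73 ± 0.36 (SE) in edgeR. Dlx1 (chromosome 2, 71528113 to 71533981) had 30 and 4 reads at the wavefront, 55.2 and 15.4 CPM, against 40 and 34 reads or 77.4 and 75.2 CPM in trailing cells. Its groups did not overlap either, but wavefront replicate 1 lay much nearer to the trailing libraries than wavefront replicate 2 did. Dlx1 averaged 36.9 ± 19.1 scaled CPM at the wavefront and 73.5 ± 3.18 trailing (SD, n = 2 each). Its log2 fold change of -0.78 ± 0.36 (SE) did not pass (edgeR with Benjamini-Hochberg, adjusted p = 0.461, range 0.264 to 1.00 over 11 alternatives). The fold was -0.49 without wavefront replicate 2 and -1.64 without wavefront replicate 1.

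The second Dlx pair was close to silent. Dlx5 (chromosome 6, 6877805 to 6882085), known from the jaw skeleton and ear, had 2 and 0 reads at the wavefront and 0 and 0 trailing, under the floor in both groups. Dlx6 (chromosome 6, 6863334 to 6868568), its neighbour, had 0 reads in all 4 libraries. Dlx3, Dlx4 and Dlx6os1, the antisense RNA at Dlx6, had 0 reads as well. Detected and undetected Dlx genes thus lay in pairs: 9426 bases separate the ends of Dlx1 and Dlx2, and 9236 those of Dlx6 and Dlx5.

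Of the reads of Dlx1 and Dlx2 together, Dlx2 held 23 of 53 and 5 of 9 at the wavefront and 71 of 111 and 50 of 84 in trailing cells. Pooled, that is 45.2% at the wavefront (95% counting interval 32.5 to 58.3%) and 62.1% trailing (54.8 to 68.9%). In single libraries Dlx2 held 43.4% and 55.6% at the wavefront and 64.0% and 59.5% trailing, with 9 reads behind the wavefront replicate 2 value. Dlx2 was selected for its lower wavefront values, which favours a lower share there. The shares are therefore a description with no test. Dlx1as, an antisense RNA on the strand opposite to Dlx1, had 15 and 2 reads at the wavefront and 16 and 14 trailing (log2 fold change -0.46 ± 0.52 SE, edgeR adjusted p = 0.861). Dlx1as shares 335 exon bases with Dlx1 and 0 with Dlx2 in GENCODE M21. The library kit does not keep the strand, so reads from the shared bases cannot be told apart, and the strand setting of the counting is not given in the sources.

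**Figure D2:**
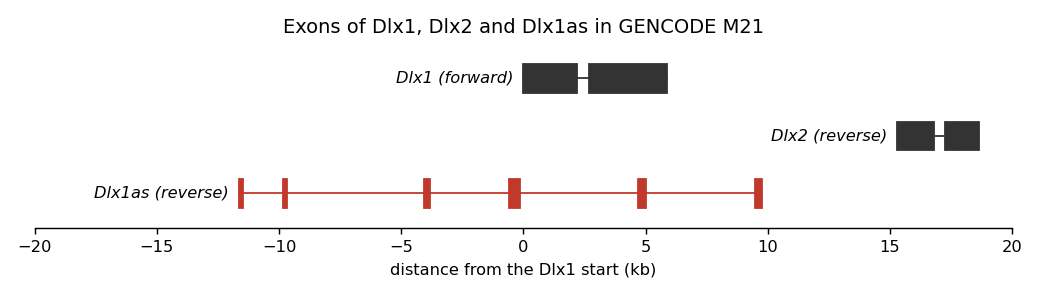
Exons (boxes) of Dlx1, Dlx2 and Dlx1as along the distance in kb from the Dlx1 start (x axis), black for the coding genes and red for the antisense RNA. Dlx1 and Dlx2 point towards each other, and Dlx1as spans the whole of Dlx1 while sharing 335 exon bases with it.

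**Figure D3:**
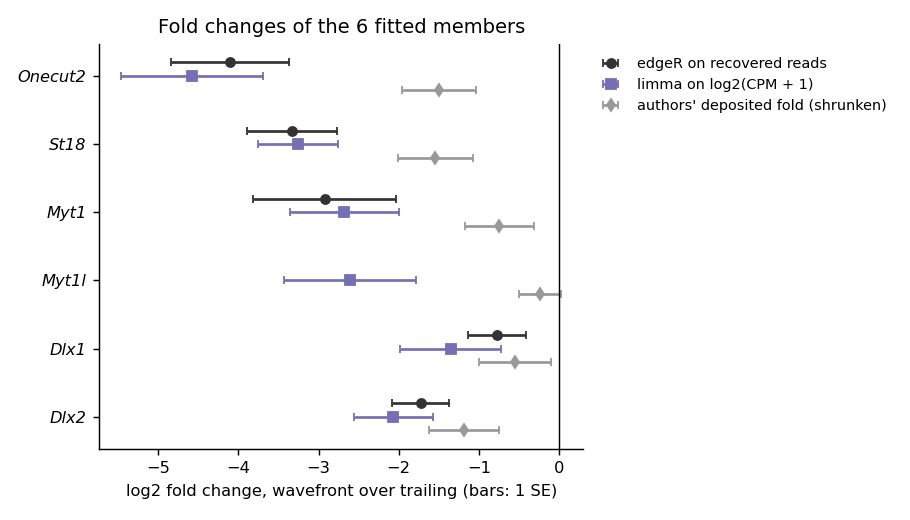
Log2 fold change, wavefront over trailing (x axis, bars 1 SE), of the 6 members that limma fitted, by edgeR on recovered reads, limma on log2(CPM + 1) and the authors' deposited table. Every point lies below 0, Dlx1 at -0.78 in edgeR is nearest to 0 of the 5 edgeR values, and Myt1l has no edgeR value.

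Across the members, 74 reads were found at the wavefront (62 and 12) and 341 in trailing cells (179 and 162). The filter on low counts kept 5 of the 10 members: Onecut2, St18, Myt1, Dlx1 and Dlx2. Onecut2, St18 and Myt1 passed it through their trailing reads alone, so they entered the test only as genes that already differed. In all 5, both wavefront libraries lay below both trailing libraries, as did 27% of the 5759 genes tested. The count test called 3 of the 5 at an adjusted p under 0.05, all lower at the wavefront, beside 1.74% of all genes tested (1.34% lower), or 23 genes higher and 77 lower. With library size alone as the scaling, that split was 9 higher and 64 lower. These 3 are Onecut2, St18 and Dlx2, the genes that chose the families, so nothing is read from that count or from how it moves. It was 1 of 5 without wavefront replicate 1, 2 of 4 without trailing replicate 1 and 2 of 5 with scaling by library size alone. DESeq2 called 0 of the 3 members it gave an adjusted p. With the unadjusted p-values from the authors' deposited table, put through Benjamini-Hochberg, 0 of 8 passed. Limma on log2(CPM + 1), the test planned for CPM, called 0% of 12519 genes, the 6 members it fitted included, with 858 genes at an unadjusted p under 0.05. Its log2 fold changes were -4.58 for Onecut2, -3.26 for St18, -2.68 for Myt1, -2.07 for Dlx2 and -1.35 for Dlx1, on a scale where the median of all genes was -0.35. That median was 0.01 in the count test. The authors' deposited table gave -1.50, -1.54, -0.74, -1.19 and -0.55 for the same genes. Its folds are shrunken towards 0: they differed by at most 0.00954 from those that DESeq2 gave with a fold-change prior on recovered reads.

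Levels of different genes can be compared per length of exon, here as reads per kb of GENCODE exon and per 1e+06 reads outside ribosomal RNA. Dlx2 had the highest level of the members in both groups, at 16.5 ± 1.83 at the wavefront and 58.7 ± 8.04 trailing (SD, n = 2 each). Dlx1 followed at 9.37 ± 4.14 and 19.1 ± 0.0849, and St18 at 1.86 ± 1.18 and 15.1 ± 3.80. In trailing cells the St18 libraries, 12.4 and 17.8, lay below the Dlx1 libraries, 19.2 and 19.1, the upper of them by less than the SD of St18. At the wavefront Dlx5 came next at 0.978 ± 1.38, from 2 reads of a single library. Myt1 had 0.759 ± 0.638 at the wavefront and 4.29 ± 0.473 trailing, and Onecut2 0.136 ± 0.193 and 4.26 ± 0.834. The trailing libraries of Myt1 and Onecut2 overlap, so these neighbours in the order do not differ beyond their spread. The length of 16234 exon bases for Onecut2 against 7191 for Myt1 enters this order, and these are GENCODE's lengths, since the sources do not name the annotation behind the counts. Below them in trailing cells came Myt1l at 0.508 ± 0.197 and Onecut3 at 0.271 ± 0.383, while Onecut1, Dlx5 and Dlx6 were at 0 there.

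**Figure D4:**
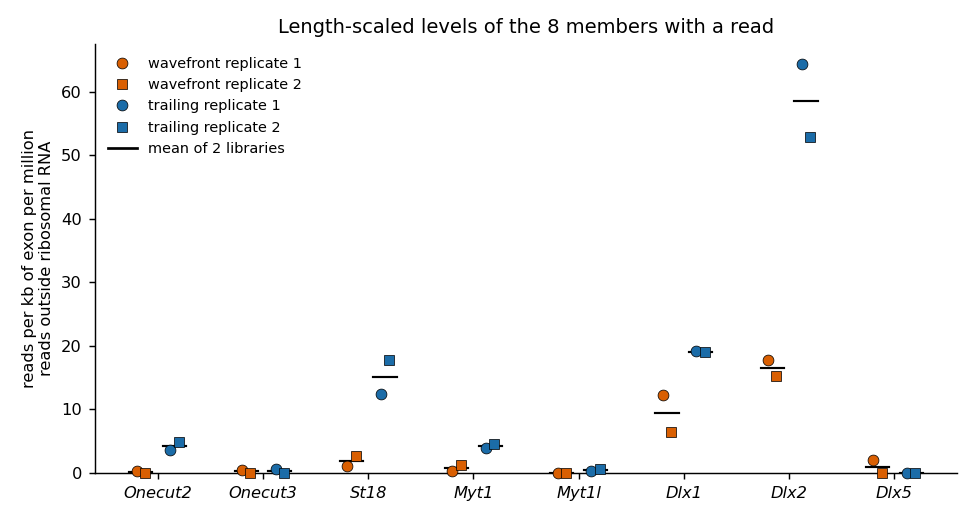
Length-scaled levels (y axis, reads per kb of exon, scaled by the reads outside ribosomal RNA) of the 8 members with a read, orange for wavefront and blue for trailing libraries, circles for replicate 1, squares for replicate 2 and a bar for the mean. Dlx2 stands highest in both groups, at 17.8 and 15.2 at the wavefront and 64.3 and 53.0 trailing.

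The profiles nearest to each of the 3 genes that chose the families were found among all genes tested, by Euclidean distance between log2(scaled CPM + 1) values over the 4 libraries. Nearest to Onecut2 was Dcx, the microtubule protein doublecortin of migrating neurons, at a distance of 0.428, with 2 and 0 reads at the wavefront and 17 and 25 trailing. Dhrs3, a retinaldehyde reductase (2 and 0 against 20 and 18 reads), and Scn3b, a sodium channel beta subunit (3 and 0 against 14 and 26), followed at 0.555 and 0.840. Nearest to St18 were Cyb561, a cytochrome of secretory granules (3 and 3 against 45 and 27 reads, distance 0.903), Smpd3, a neutral sphingomyelinase (6 and 2 against 36 and 35, 0.908), and Syt1, the synaptic vesicle calcium sensor (6 and 2 against 38 and 39, 0.923). Among the nearest to Dlx2 were Gng2, a G protein gamma subunit (20 and 5 against 49 and 52 reads, distance 0.568), and Mllt11 (15 and 5 against 67 and 57, 0.632). With 4 libraries, these distances describe the profiles and no more.

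Genes that work with these factors elsewhere gave 0 calls in edgeR, beside 1.74% of all genes tested. So few of them were tested that 0 calls is near that share and says little about them. Of 10 corepressor partners of the Myt1 family, such as the scaffold Sin3b and the histone deacetylase Hdac1, 7 were tested by edgeR and 0 passed, with 0 at an unadjusted p under 0.05 and 0 called by limma or DESeq2; their median log2 fold change was -0.09. Hdac3, the deacetylase with the most reads of the list, had 79 and 29 at the wavefront and 78 and 57 trailing (0.13 ± 0.31 SE). Rest, the repressor of neuronal genes, had 25 and 6 reads at the wavefront and 13 and 13 trailing (0.62 ± 0.46 SE, edgeR adjusted p = 0.734). Of 14 Notch pathway genes, 5 were tested and 0 passed, with 3 at an unadjusted p under 0.05 in edgeR, 1 in limma and 0 called by limma or DESeq2. Notch2, a Notch receptor with the most reads of that list, had 70 and 36 at the wavefront and 49 and 40 trailing (0.78 ± 0.33 SE, edgeR adjusted p = 0.365). Dll1 (-0.98 ± 0.46 SE) and Hes6 (-0.71 ± 0.34 SE) went the other way. Of the 5 tested Notch pathway genes, 3 had a log2 fold change below 0, and the median was -0.26. Of the other 4 cut-domain genes 2 were tested and 0 passed in edgeR, limma or DESeq2, with 0 at an unadjusted p under 0.05 in edgeR or limma, and Cux1 had 15 and 4 reads at the wavefront against 17 and 15. Genes that Dlx factors control in forebrain or skeleton were nearly unread: the 14 genes summed to 1 and 1 reads at the wavefront and 3 and 4 trailing, and 8 of them, the GABA enzyme Gad2 and the GABA transporter Slc32a1 among them, had 0 reads in all libraries.

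Of 24 neurogenic transcription factors, 7 were tested by edgeR, 1 fell, 0 rose and 6 did not pass; the median log2 fold change was -0.43. The 1 that fell was Tlx2, a homeobox gene of enteric ganglia (10 and 0 reads against 54 and 47), and DESeq2 called 0 of 6. Of the 7, 2 passed the filter through the trailing libraries alone, Tlx2 among them. Tlx2 was thus tested only as a gene that already differed, and its call is partly fixed by the filter. Without wavefront replicate 2, 1 fell and 2 rose of 9 tested, and the median was 0.06; without wavefront replicate 1, 2 fell and 0 rose of 10, with a median of -0.91. Insm1 and Isl1, of endocrine and neuronal differentiation, had 1 and 1 against 2 and 6 reads, and 0 and 2 against 3 and 5, both under the filter. Beside these, 11 of 14 tested neuron markers fell, 0 rose and 3 did not pass, with a median log2 fold change of -3.07, beside 1.34% lower of all genes tested. Of these 14 markers, 9 passed the filter through the trailing libraries alone, 8 of the 11 that fell among them, so the count and the median are partly fixed by the filter. Among all genes tested, 372 of 5759 passed it that way. Mapt, the axonal tau protein, had a log2 fold change of -5.18 ± 0.81, Rtn1, a reticulon, -3.90 ± 0.48, Dcx -3.88 ± 0.77 and Prph, a peripheral neuron filament, -3.69 ± 0.69 (SE, edgeR), the largest of the list. DESeq2 called 4 of 12 neuron markers and limma 0 of 15, with 14 at an unadjusted p under 0.05. Summed over the list, neuron markers had 1619 and 1487 CPM of the non-ribosomal reads at the wavefront and 4711 and 5386 trailing, and its 15 genes all had reads. Counts of neuron markers that fell were 6 without wavefront replicate 1, 10 without wavefront replicate 2, 9 without trailing replicate 1 and 6 without trailing replicate 2. Neuron markers were low in the same libraries as Onecut2, St18 and Dlx2, and their part in those values was not tested.

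**Figure D5:**
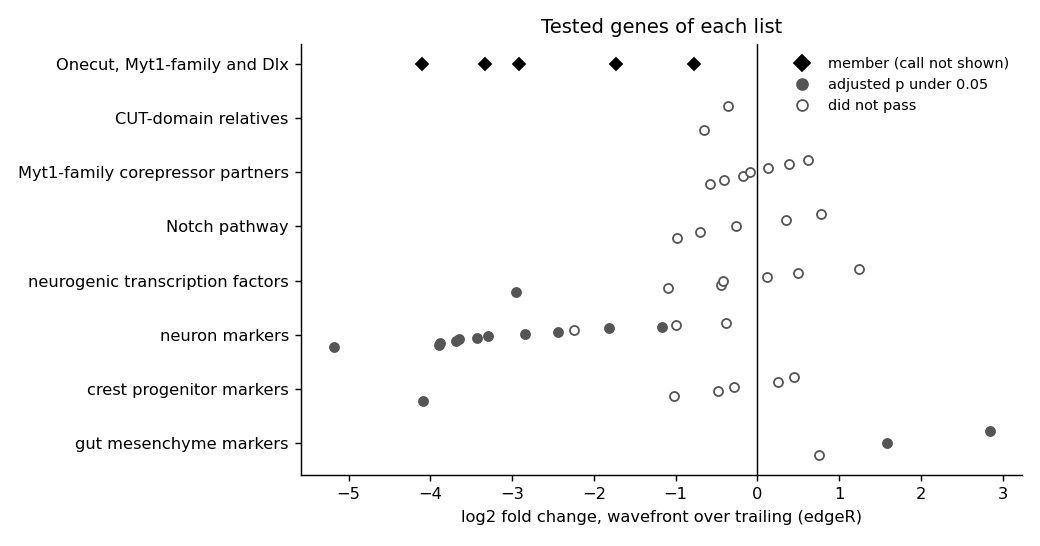
Log2 fold change, wavefront over trailing (x axis, edgeR), of the tested genes of each list, 1 point a gene: diamonds for the 5 tested members, filled circles for an adjusted p under 0.05 and open circles for genes that did not pass. The members span -4.10 to -0.78, and the neuron markers, with a median of -3.07, span the widest range below 0.

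Crest progenitor markers, of the sorted lineage itself, summed to 4649 and 2714 CPM of non-ribosomal reads at the wavefront and 4005 and 2985 trailing. Markers of other cells were also read in these sorts. The sums of their lists were highest in wavefront replicate 2, and their part in the members' values was not tested. Gut mesenchyme markers summed to 507 and 1357 against 228 and 242, with Twist1, Twist2, Barx1 and Osr1 at 0. In edgeR 2 of 3 tested rose, Col3a1 and Des, beside 23 higher of all 5759 genes tested. Col3a1 was highest in wavefront replicate 2 (deposited CPM 243 and 361 against 126 and 128). Des was highest in wavefront replicate 1 (134 and 38.4 against 15.5 and 13.3). With 1 library left out, 1 of the 3 rose in each case, as with library size alone as the scaling, and DESeq2 called 0 of 3 and limma 0 of 10, with 3 at an unadjusted p under 0.05. Red cell markers summed to 2.21 and 966 against 5.17 and 0, and none was tested by edgeR on all libraries. Hbb-y had 0 and 67 reads at the wavefront and 1 and 0 trailing, and Hba-x 0 and 33 against 0 and 0. With wavefront replicate 1, trailing replicate 1 or trailing replicate 2 left out, 2 of the list passed the filter. They did so through wavefront replicate 2 alone, so their direction was fixed by the filter and nothing is read from it. Without wavefront replicate 2 none was tested. Epithelium, liver and pancreas markers, where Onecut1 is known to act, summed to 33.2 and 87.0 against 12.9 and 9.07, and 8 of 17 had 0 reads, Pdx1, Ptf1a and Alb among them. Endothelium markers summed to 61.9 and 78.3 against 46.6 and 48.4, with 0 of 1 tested passing in edgeR and 0 at an unadjusted p under 0.05. Leukocyte markers summed to 0 and 17.4 against 2.59 and 0, and mesothelium markers to 0 and 17.4 against 0 and 0, with Ptprc and Wt1 at 0. Without wavefront replicate 2, the log2 fold changes were -3.72 for Onecut2, -3.66 for St18, -3.48 for Myt1 and -1.58 for Dlx2 in edgeR.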

How the data were processed

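RNA of tdT-sorted crest-derived cells was isolated with Trizol and sequenced from unstranded Nextera XT libraries. The submitters' processing notes name STAR 2.5.2b, featureCounts, DESeq2, FastQC 0.11.9 and bcl2fastq 2.17, with GRCm38 as the build, and no annotation release or strand setting. The authors' deposited table holds, per the file headers, CPM of each library, a BaseMean (a signal, reads over size factors), a log2 fold change with its error, a Wald score and an unadjusted p-value. All CPM (100%) were whole multiples of the CPM of 1 read within 0.01 reads, so read counts were recovered from the deposited values. The 428 rows that repeated an identifier were dropped, which left 27178 genes, 14589 with a read.

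The members and gene lists (14 lists, 153 genes, all in the table) were chosen with earlier results of these data known. The design set limma 3.58.1 with a trend as the test for CPM, on log2(CPM + 1) of genes averaging more than 1 CPM, and edgeR 4.0.16 (quasi-likelihood, TMM, filterByExpr with 10 reads) on recovered reads beside it. DESeq2 1.42.0 under R 4.3.3 was an alternative. Location was the only term, and p-values were adjusted by Benjamini-Hochberg over all genes, two-sided, at 0.05. Scaled CPM are reads over TMM-adjusted library sizes. Genes named are the 10 members; the called genes of each list, up to 4 with the largest change; the gene with the most reads where none passed; and the 3 nearest profiles. Hdac1, Sin3b, Rest, Dll1, Hes6, Insm1, Isl1, Gad2 and Slc32a1, and list members named at 0 reads, were named after their values were seen. Some genes that these rules name are not reported here. Coordinates and exon lengths are from GENCODE M21 and promoter windows from RefSeq, both on GRCm38.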

Additional observations from a re-analysis of the deposited data

How the results depend on the processing

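In Onecut2, St18, Dlx2, Dlx1, Myt1 and Myt1l, both wavefront libraries lay below both trailing libraries. The first 3 were also chosen for lower wavefront values. The sign of these genes under other settings was thus largely fixed in advance, and nothing is read from it. The log2 fold changes of Onecut2, St18, Dlx2, Dlx1 and Myt1 lay below 0 under all alternatives that gave a value, in the count test and in limma, and Myt1l did so in limma. In edgeR and DESeq2 they ranged from -7.27 to -3.72 for Onecut2, from -3.66 to -2.52 for St18, from -2.02 to -1.51 for Dlx2, from -3.48 to -1.85 for Myt1 and from -1.64 to -0.49 for Dlx1. The authors' deposited folds, which are shrunken, were outside these ranges for Onecut2 (-1.50), St18 (-1.54), Dlx2 (-1.19) and Myt1 (-0.74). The value of -7.27 came without wavefront replicate 1, which leaves Onecut2 with 0 wavefront reads and depends on the prior count. Myt1 and Dlx1 passed in none of these settings, limma's included.

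The count test called 100 genes. The number was 13 in DESeq2 and 13 with the authors' p-values, and 40 to 143 with 1 library left out; a lone library of a location was assumed to vary like the others. With the replicate number as a block it was 61. In limma, 0 genes were called in the main setting, and also in each setting without 1 library and with a pseudocount of 0.5. It called 3 with a pseudocount of 5, 5 with no filter, 36 above a mean CPM of 10, 2 with DESeq2's size factors, 4 on CPM outside ribosomal RNA and 52 with the replicate block. Members called were 2 of 5 above a mean CPM of 10, beside 36 of 7739 genes, and 2 of 6 with the block, beside 52 of 12519. Myt1, Myt1l and Dlx1 were not among them. The called members were thus from Onecut2, St18 and Dlx2, which chose the families, and nothing is read from these counts. The cause of these differences was not tested. The design set no replicate block, since the labels name location as the only factor and do not say whether same-numbered libraries share embryos. Deviations of same-numbered libraries had a correlation of 0.0589 over 5759 genes. That value cannot decide on pairing, because wavefront replicate 2 also differed in depth and ribosomal share. The reads ratio of Onecut2 was 0 without wavefront replicate 1. Leaving out each trailing library for these ratios, and each library for the list counts, were alternatives chosen after seeing the data. Depth limits the rest: 3 reads are 11.5 CPM in wavefront replicate 2, above the trailing level of Myt1l.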
